A study of Mus musculus with 22 samples.

Results

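DNA methylation was compared between the forebrains of 9 ethanol-exposed embryos whose methylation stayed near that of the controls and those of 6 control embryos. These 15 samples are part of a series of 22, in which 16 embryos had been exposed. The 9 exposed embryos (EtOH-exposed 1, 3, 7, 10, 11, 12, 13, 15 and 16) were chosen by their methylation itself: 7 others (EtOH-exposed 2, 4, 5, 6, 8, 9 and 14) had lower methylation and were left out. Every difference in methylation below is therefore a description of selected samples and not a test, and so are the counts of tiles past the study's own criterion. Pregnant C57BL/6 females had received a pair of subcutaneous injections at E2.5, of ethanol (EtOH-exposed) or of saline (control), and forebrains without visible defects were taken at E10.5. Each library came from 1 embryo. By the study's methods the embryos came from fewer litters than there were embryos, so some were litter mates. The labels do not say which. By the same methods, controls and all exposed embryos each comprised equal numbers of males and females, but the labels give no sex. CpG calls on the Y chromosome, which bear on sex, were 183, 379, 400.5, 822, 952 and 1617 per M calls in the controls. Of the compared exposed embryos, 6 had 188 to 434, and EtOH-exposed 11, 3 and 7 had 593, 749 and 902. The left-out EtOH-exposed 2, 4, 5, 6, 8 and 9 had 640 to 1180, and EtOH-exposed 14 had 128. Most exposed embryos with many Y calls were thus left out, and the compared exposed embryos may hold fewer males than females. The exposed values show no clear gap (593 beside 640), so no sex was assigned to single embryos. The part of sex in the differences was not tested. Only methylation was measured, so the dissected tissue could not be checked against marker genes, and a change in cell types cannot be told apart from a change within cells.

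Cytosine methylation at CpG sites is erased from most of the genome during the first days after fertilisation and set again around implantation, and the injections fell within this reprogramming. Imprinted genes are the exception: at their control regions the methylation that 1 parental allele brought from the germline is protected, kept by DNMT1 and by factors such as ZFP57 and TRIM28, so that a tissue with intact imprints shows about 50% methylation there. CpG-dense promoters are mostly unmethylated, whereas CpG-poor intergenic and intronic DNA is mostly methylated. Reduced representation bisulfite sequencing (RRBS) reads the ends of MspI fragments, which begin at CCGG, and a cytosine that stays C after bisulfite treatment counts as methylated.

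The genome was divided into tiles of 100 bp, and a tile was measured in a sample where it held at least 2 CpGs with at least 10 reads. On chromosomes 1 to 19, 113525 tiles were measured in at least 5 samples of each group and 41319 in all 15. The sequences of 9 tiles are printed because the results turn on them: 3 lie at the imprinted loci with the widest mean differences among those measured in all 15, 3 in introns of genes that the study named, and 3 are tiles where no exposed embryo overlapped a control. Each is the plus strand of GRCm38, 5′ to 3′, with the CpGs in capitals.
Nnat, chr2:157560401-157560500: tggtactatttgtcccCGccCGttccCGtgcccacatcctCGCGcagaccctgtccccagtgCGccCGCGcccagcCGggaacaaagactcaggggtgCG
Peg13, chr15:72809701-72809800: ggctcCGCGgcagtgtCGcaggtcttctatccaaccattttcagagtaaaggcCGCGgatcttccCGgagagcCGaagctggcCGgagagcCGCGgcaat
Grb10, chr11:12026101-12026200: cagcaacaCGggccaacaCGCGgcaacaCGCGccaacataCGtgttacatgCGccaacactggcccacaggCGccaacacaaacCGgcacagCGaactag
Hcn4, chr9:58849801-58849900: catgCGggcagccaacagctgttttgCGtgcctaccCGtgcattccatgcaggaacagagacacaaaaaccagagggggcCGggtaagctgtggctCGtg
Septin9, chr11:117350101-117350200: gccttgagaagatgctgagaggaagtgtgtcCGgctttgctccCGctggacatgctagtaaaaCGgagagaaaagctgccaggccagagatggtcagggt
Celsr1, chr15:85947901-85948000: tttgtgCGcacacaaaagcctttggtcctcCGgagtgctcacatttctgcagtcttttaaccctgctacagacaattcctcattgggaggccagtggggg
Trpc7, chr13:56786601-56786700: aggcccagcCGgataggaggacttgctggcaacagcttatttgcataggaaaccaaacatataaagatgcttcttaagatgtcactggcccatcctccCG
intergenic, chr14:44299101-44299200: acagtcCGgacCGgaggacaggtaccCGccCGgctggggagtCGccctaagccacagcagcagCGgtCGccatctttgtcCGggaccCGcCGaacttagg
intergenic, chr2:170472201-170472300: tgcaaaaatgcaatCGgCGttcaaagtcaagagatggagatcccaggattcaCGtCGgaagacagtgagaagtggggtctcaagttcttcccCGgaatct

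The libraries held 68.1 to 132 M (mega) CpG calls in controls and 89.2 to 151 M in the compared exposed embryos. The median number of reads was 411 per tile and sample, where a read counts once for each CpG it covers. For a tile with 411 reads and 49.9% methylation, the 95% Wilson interval is 45.1 to 54.7%. It covers counting error only, and PCR copies were not told apart from separate molecules. It also takes the CpGs of 1 read as independent, so it is too narrow where a read covers several CpGs. Some libraries stood apart at the 19829 tiles that are close to unmethylated (a median under 1%). Controls 1 and 2 had 1.53% and 1.52% methylated reads there against 0.677 to 0.685% in controls 3 to 6. EtOH-exposed 1, 3 and 12 had 0.262 to 0.316% against 0.839 to 1.11% in the other compared exposed embryos. Of the left-out embryos, EtOH-exposed 2, 9 and 14 had 0.265, 0.287 and 0.309%. EtOH-exposed 8 had 1.40% and EtOH-exposed 4, 5 and 6 had 2.54, 2.46 and 2.41%. None of these sets of libraries held both groups, so a library effect of this kind cannot be told apart from the exposure, and the main differences are also given without these libraries, over the same tiles.

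The values that chose the embryos are shown most clearly by the 379 most variable tiles (the top 1% by SD of the 37944 tiles measured in all 22 samples). The lowest compared exposed embryo, EtOH-exposed 11, had 54.8% there and the highest left-out embryo 52.4%, the values just inside and just outside the choice. The 7 left-out embryos ranged from 32.8 to 52.4% and the controls from 64.3 to 67.7%. EtOH-exposed 12 was highest at 68.1%, and 6 of the 9 compared embryos lay below every control. Across the 41319 tiles with a value in every compared sample, the left-out embryos had 23.0 to 26.6%, below every compared embryo.

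Genome-wide, the selected exposed forebrains were almost as methylated as the controls. Over tiles measured in all 15, the lowest, median and highest control levels were 27.2, 27.5 and 28.1%, and those of the exposed embryos 26.8, 27.4 and 27.7%. Of the 9 exposed embryos, 6 lay within the control range, and EtOH-exposed 1, 3 and 11 lay below it. The means were 27.6 ± 0.378% (SD, n = 6) and 27.3 ± 0.310% (n = 9), a difference of -0.268 points that is smaller than the SD of either group. The share of tiles with 90 to 100% methylation was 17.5 ± 0.836% in controls and 17.3 ± 0.915% in exposed embryos, with 6 of 9 within the control range. Leaving out 1 library moved this difference from -0.190 to between -0.452 (without control 6) and -0.0048 points (without control 2), and that over all tiles to -0.155 without control 2.

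Tiles of intermediate methylation separated the embryos more widely. At the 2770 tiles with 20 to 80% in controls, the lowest, median and highest levels were 56.1, 56.6 and 58.1% in controls and 53.3, 55.9 and 58.6% in exposed embryos. The exposed embryos lay on both sides: 5 were below every control, 1 (EtOH-exposed 12) was above every control and 3 were within. Their SD was 1.63 points against 0.740 in controls, and the means (56.2 and 56.8%) differed by -0.675 points. The difference was -0.318 without EtOH-exposed 11 and -0.415 without control 4. At 28 tiles of 9 imprinted loci, the levels ran from 36.9% through a median of 48.4% to 55.5% in controls and from 35.8% through 45.4% to 55.9% in exposed embryos. The ranges nearly coincided, 7 of 9 exposed embryos fell within that of the controls, and the difference of the means, -1.96 points (47.8 ± 6.33% and 45.8 ± 7.06%), was less than either SD. Without EtOH-exposed 1, 3 and 12 the difference was -0.122 points over all tiles, -0.892 over intermediate tiles and -0.458 over imprinted tiles. Without controls 1 and 2 it was -0.0443, -0.787 and 0.996, the last with its direction turned. Single libraries moved the imprinted difference to between -4.14 (without control 6) and -0.412 points (without control 2), and it was also above -1.2 without control 1 or EtOH-exposed 1, 11 or 16.

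**Figure D1:**
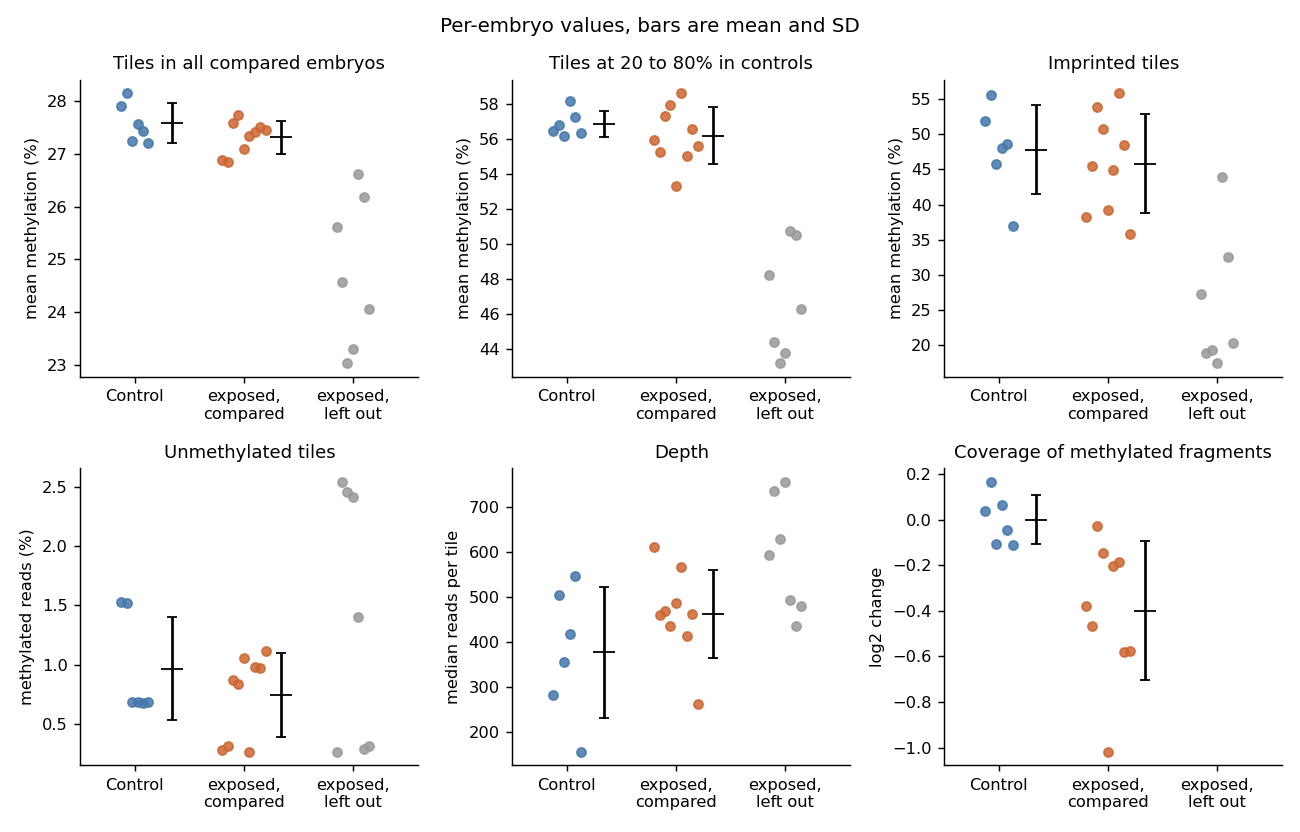
Each point is 1 embryo and each bar the mean with its SD. Top: mean methylation (%) of tiles measured in all compared embryos, of tiles at 20 to 80% in controls and of imprinted tiles; bottom: methylated reads (%) at unmethylated tiles, median reads per tile, and log2 change of coverage from unmethylated to fully methylated fragments. The compared exposed embryos overlap the controls in the top panels while the 7 left-out embryos (gray, for context) reach as low as 23.0% over all tiles. At unmethylated tiles EtOH-exposed 1, 3 and 12 sit at 0.262 to 0.316%, and the left-out EtOH-exposed 2, 9 and 14 at 0.265 to 0.309%.

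Depth moved with the choice of embryos, so it too is given as a description with no p-value. Exposed libraries held more calls than controls, 124 ± 16.3 M (n = 9) against 97.4 ± 22.7 M (n = 6), and the 7 left-out libraries held 116 to 216 M against 89.2 to 151 M in the compared exposed ones. The difference of 27.0 M from controls was 21.6 M without EtOH-exposed 1, 3 and 12. Median reads per tile were 463 ± 97.5 against 378 ± 144, and 436 to 755 in the left-out libraries. The difference of 85.5 reads from controls was 41.4 without control 6. A further measure was how coverage changed with methylation over 7165 MspI fragments. It is the slope of log2 coverage on the fragment's methylation in controls, given from unmethylated to fully methylated. Length, GC content and CpG number were in the fit, and the controls were set to average 0. The controls ran from -0.11 to 0.17 around a median of 0.00 and the exposed embryos from -1.02 through -0.38 to -0.03. Methylated fragments were thus covered less in exposed libraries: 8 of 9 exposed embryos lay below every control, all but EtOH-exposed 7, and EtOH-exposed 11 was lowest. The difference was -0.40, and -0.45 to -0.32 without any 1 library. The 2 lowest embryos after EtOH-exposed 11 were EtOH-exposed 15 and 16, both at -0.58. Whether this measure is independent of the levels that chose the embryos, and its part in the methylation differences, was not tested.

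The differences were larger in the middle of the methylation range than at its ends. Divided by the mean of the controls, tiles at 30 to 40, 40 to 50 and 50 to 60% differed by -1.24, -1.08 and -1.15 points. Without EtOH-exposed 11 these were -0.894, -0.675 and -0.663, and without EtOH-exposed 1, 3 and 12 they were -1.56, -1.40 and -1.45. Tiles at 80 to 90% differed by -0.105 points, which turned without control 2 or 4 or EtOH-exposed 11 (0.0251 to 0.0704), and those at 90 to 100% by -0.312, or -0.190 without control 2. Those at 1 to 10% differed by -0.364 points, and by -0.117 without EtOH-exposed 1, 3 and 12, -0.212 without control 2 and -0.0295 without controls 1 and 2. EtOH-exposed 11 was the lowest embryo in each class from 20 to 100%, and EtOH-exposed 12 the highest in those from 20 to 70%. At 40 to 50% these embryos had 40.6 and 47.0% against 44.1 to 46.6% in controls, so the exposed embryos spread beyond the controls in both directions. Since the classes were cut on the control mean, a tile that is high in controls by counting error is more often lower in the exposed group, and the reverse for a low tile.

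**Figure D2:**
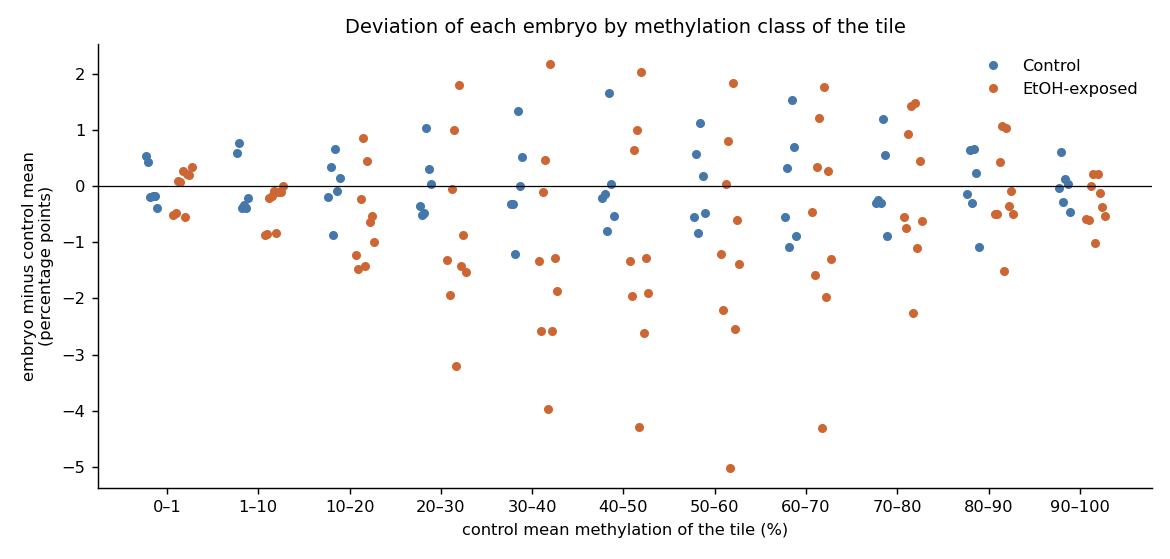
Tiles measured in all 15 embryos are grouped on the x axis by the mean methylation of the controls (%), and the y axis gives each embryo's mean level minus the control mean (percentage points). Points are embryos; the exposed embryos fan out to both sides of 0 in the middle classes and draw together above 80%.

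Every kind of genomic feature had a slightly lower mean in exposed embryos, but all 6 differences were smaller without EtOH-exposed 1, 3 and 12 and, without controls 1 and 2, 3 of them turned. Intergenic tiles, 25.0% of the tiles analysed, had 60.7% in controls and 60.4% in exposed embryos, and intronic tiles (29.2%) had 33.7 and 33.4%. Coding exons differed by -0.231 points, untranslated regions by -0.238, exons of non-coding transcripts by -0.240 and promoters by -0.241, the last from 2.94 to 2.70%. In each feature 6 or 7 of 9 exposed embryos lay within the control range, and those outside lay below it. For promoters these were EtOH-exposed 1, 3 and 12, with 2.19 to 2.24% against 2.62 to 3.55% in controls. They were also the lowest compared libraries at unmethylated tiles. Without these 3 embryos the difference was -0.305 points in intergenic tiles (from -0.331), -0.184 in introns (from -0.290), -0.0872 in coding exons, -0.0253 in untranslated regions, -0.0167 in exons of non-coding transcripts and -0.00309 in promoters. Without controls 1 and 2 it was -0.183 in intergenic tiles, -0.0574 in introns and -0.0692 in coding exons, and it turned to 0.0145 in untranslated regions, 0.0400 in exons of non-coding transcripts and 0.0476 in promoters. Control 2 alone took the promoter difference to -0.119 and control 1 to -0.132 points. At intermediate tiles, the features differed by -0.401 (untranslated regions) to -0.878 points (promoters). By CpG density, tiles with 2 CpGs went from 73.6 to 73.0% with 6 of 9 exposed embryos below every control, and those with 10 or more CpGs from 2.49 to 2.27%. Without the same 3 embryos the tiles with 2 CpGs differed by -0.648 points (from -0.583), whereas those with 10 or more CpGs turned from -0.221 to 0.0249 points, and to 0.0592 without controls 1 and 2.

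Across single tiles, the median difference was -0.193 points, and 96.9% of tiles lay within 5 points. Among intermediate tiles measured in all 15, 85.3% lay within 5 points. A difference of at least 10 points was found in 301 tiles with lower and 129 with higher methylation in exposed embryos. The spread between embryos at single tiles was similar in size in both groups after the choice of embryos. At intermediate tiles the median SD was 4.96 points in exposed embryos and 5.34 in controls. The SD was larger in exposed embryos at 43.7% of tiles. Counting alone gives 2.93 over all 15 samples together, and controls had fewer reads per tile on average. The choice left out exposed embryos of low methylation and no control, so the likeness of the spreads, and of the distances below, is not read as a result. The distance between embryos over intermediate tiles, as the root mean square of their differences, had a median of 10.3 points among controls, 8.81 between controls and exposed embryos and 8.81 among exposed embryos. Controls 2 and 6 were furthest from the other controls (11.5 and 11.6 points on average), and EtOH-exposed 11 was the exposed embryo furthest from the controls (11.1).

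Imprinted loci are described at tiles within 5 kb of a start site and with 30 to 70% in controls, the range in which 1 methylated allele is usually seen. Of 21 listed loci, 16 had such a tile and 9 had one measured in all 15 samples. In exposed embryos, 12 of the 16 loci had a lower mean and 4 a higher one, and the groups overlapped at all 16. The direction turned when 1 library was left out at H13, Kcnq1, Plagl1, Igf2r and Nap1l5, as given below. Without controls 1 and 2 together, the difference was 3.60 points at H13 and 7.54 at Igf2r, both turned, and -7.19 at Nnat, -3.05 at Mest and -0.237 at Kcnq1. Of the 63 tiles, 48 were lower and 15 higher, with a median difference of -3.23 points, against -0.193 over all tiles and -0.565 over intermediate tiles. Of all tiles measured in all 15, 59.7 to 61.9% were lower in each class from 30 to 70%, and tiles of 1 locus are not independent. Counting error was 0.683 to 4.21 points per locus with the CpGs of 1 read taken as independent, and it is larger where they are not. The SD between embryos was 3.19 to 18.8 in controls and 6.20 to 19.5 in exposed embryos. Among the embryos so chosen, this SD was larger in exposed embryos at 8 loci and in controls at the other 8. Impact, Slc38a4, Meg3 and Rasgrf1 had tiles outside this range only and are not in these counts, and Cdh15 had no tile. The 4 tiles of Impact, at 21.2 to 28.3% in controls, differed by -8.48 to -7.01 points. The 3 of Slc38a4, at 28.6 to 93.5%, differed by -8.62 to 0.382 points, the 2 of Meg3 by -2.76 to -1.44 and the 2 of Rasgrf1 by -0.695 to -0.0529.

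Nnat (neuronatin), a paternally expressed gene of the nervous system, had the largest mean difference of the 9 loci measured in all samples, a rank that rests on 1 control. Its lowest, median and highest levels were 38.8, 51.4 and 80.2% in controls and 20.9, 37.3 and 58.4% in exposed embryos. EtOH-exposed 1, 3, 11, 12 and 16 lay below every control, and the other 4 overlapped. The mean went from 52.9 ± 15.1% (n = 6) to 38.3 ± 13.3% (n = 9), a difference of -14.6 points of about the size of either SD. Control 2 alone stood at 80.2%, with the next control at 55.3%, and without it the difference was -9.09 points. Neighbouring tiles did not all move alike. At the tile printed above, in a coding exon, the means were 55.5 and 38.7%, and in the adjoining intronic tile (chr2:157560301-157560400) 50.2 and 37.9%. The tile before that (chr2:157560201-157560300, n = 8 exposed) had 50.4% in controls and 58.9% in exposed embryos. The fourth tile (chr2:157561801-157561900, 5 controls and 8 exposed embryos) had 51.1 and 44.2%, with 5 exposed embryos below every control.

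Gnas encodes the stimulatory G protein alpha subunit from a complex imprinted locus with several promoters and an antisense transcript. Its level was 39.9, 46.4 and 50.4% (lowest, median, highest) in controls and 30.7, 42.8 and 50.6% in exposed embryos. EtOH-exposed 1, 11, 15 and 16 were below every control, EtOH-exposed 10 was just above, and the mean difference was -3.23 points, or -1.83 without EtOH-exposed 16. Of its 21 tiles, 18 were lower in exposed embryos. They lie in 3 stretches of the locus. The tile chr2:174299501-174299600, in a coding exon, had 47.5% in controls (n = 5) and 32.1% in exposed embryos (n = 9), with 7 below every control. The tile after it (chr2:174299601-174299700) had 42.7 and 33.5%. The tile before it (chr2:174299401-174299500) had 50.7 and 50.2%, and the one before that (chr2:174299301-174299400) 46.4 and 52.6%.

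Means were higher in exposed embryos at Peg13 and Grb10. Peg13 is a paternally expressed non-coding RNA, and its level was 37.1, 46.4 and 49.5% in controls and 31.2, 50.6 and 68.5% in exposed embryos. Among exposed embryos 5 were above every control, with EtOH-exposed 10, 11 and 13 at 61.5, 65.2 and 68.5%, and 1 was below; the mean difference was 6.16 points, less than the exposed SD of 12.2, and it was 3.996 points without EtOH-exposed 13 and 12.7 without EtOH-exposed 1, 3 and 12. The third Peg13 tile (chr15:72810601-72810700, 5 controls and 8 exposed embryos) went the other way, with 57.0 and 48.7% and 4 exposed embryos below every control. EtOH-exposed 11, the lowest embryo over intermediate tiles, was thus the second highest here. Grb10 encodes an adaptor protein that restrains growth-factor signalling. At its 1 tile measured in all 15 samples, the levels were 15, 49.8 and 62.7% in controls and 36.7, 58.1 and 76.0% in exposed embryos. Here 4 exposed embryos exceeded every control and none was below, with control 6 at the lowest value, and the mean difference of 13.5 points was less than the control SD of 18.8. Without control 6 it was 7.43 points. Of the 7 Grb10 tiles, 5 were lower in exposed embryos and 2 higher, so the printed tile does not stand for the locus.

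At Kcnq1, whose control region is the start of the non-coding RNA Kcnq1ot1, the levels were 42.8, 44.4 and 66.3% in controls and 29.2, 49.1 and 62.3% in exposed embryos. In exposed embryos 4 were below every control, and the mean was lower (-3.52 points) while the median was higher. The mean and the median also differed in direction at H13, which holds the retrogene Mcts2 (mean -4.30 points; medians 41.8 and 42.8%), and at Igf2r, the receptor gene that clears an insulin-like growth factor and whose intron holds the start of Airn (mean -1.22; medians 50.5 and 57.4%). In all 3 loci control 2 was the highest control, and without it the mean differences turned to 0.127 points at Kcnq1, 1.501 at H13 and 3.68 at Igf2r. Igf2r also turned without control 1 (0.895), EtOH-exposed 1 (0.718) or EtOH-exposed 12 (0.581) and without EtOH-exposed 1, 3 and 12 together (3.42). Plagl1, a zinc-finger transcription factor, had means of 48.3 and 48.4%, but control 6 alone stood at 19.8% and without it the difference was -5.65 points. It was also below 0 without control 5 or EtOH-exposed 7, 10, 13, 15 or 16 (-2.03 to -0.266) and 6.34 without EtOH-exposed 1, 3 and 12. Zrsr1, a retrogene in an intron of Commd1, had 53.4 and 55.7%, a difference that was 0.0779 points without control 6 and 4.06 without EtOH-exposed 16. In the other direction, the difference was -6.90 points at H13, -4.28 at Igf2r and -5.05 at Nap1l5 (described next) without control 6, -5.75 at Kcnq1 without EtOH-exposed 7 and 2.42 at Plagl1 without control 1.

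The remaining 7 loci had no tile measured in every sample. At Inpp5f, an inositol phosphatase gene, the levels were 36.1, 39.4 and 76.2% in 5 controls and 9.33, 30.3 and 42.7% in 9 exposed embryos. Again 5 exposed embryos were below every control, with EtOH-exposed 15 lowest, and control 1 stood alone at the top: the mean difference was -15.99 points, and -8.59 without that control. At H19, a non-coding RNA whose promoter carries paternal methylation, the levels were 29.3, 29.8 and 36.9% in 5 controls and 13.6, 27.1 and 35.4% in exposed embryos, with 5 below every control. Snrpn, a splicing factor gene of the neuron, differed by -8.12 points (4 controls and 8 exposed embryos) and Peg3, a zinc-finger gene, by -9.22. Mest, a hydrolase gene, differed by -7.50 points, the retrotransposon-derived Peg10 by -5.42 and Nap1l5, of the nucleosome assembly family, by -1.25. All 9 exposed embryos lay within the control range at Nap1l5, whereas at Peg10 2 were below and 3 above every control, from 21.2 to 81.6%. The Nap1l5 difference turned to 2.42 points without control 1, 0.499 without control 5, 0.352 without EtOH-exposed 1 and 3.18 without EtOH-exposed 1, 3 and 12. That of Peg10 was -1.58 points without EtOH-exposed 16 and -2.08 without EtOH-exposed 11, but -9.13 without EtOH-exposed 3, -8.41 without control 6 and -10.4 without EtOH-exposed 1, 3 and 12. Peg3 differed by -5.62 points without control 3 and by -5.52 without EtOH-exposed 11, and H19 by -2.89 (from -4.55) without EtOH-exposed 11.

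Embryos differed in how many loci were displaced. EtOH-exposed 11 was below every control at 10 of 16 loci, EtOH-exposed 1 at 8 of 16 and EtOH-exposed 16 at 8 of 14. EtOH-exposed 13 was above every control at 5 loci and EtOH-exposed 7 at 4. Among controls, set against the other controls, control 6 was below at 9 of 12 loci, and controls 1 and 2 were above at 5 of 16 and 5 of 12. At every locus some control is lowest and another highest among the controls, and each control was set against fewer embryos than the exposed ones were, so these counts cannot be compared with those of exposed embryos. Control 6 also had the lowest depth, 157 reads per tile; the part of depth in this was not tested.

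**Figure D3:**
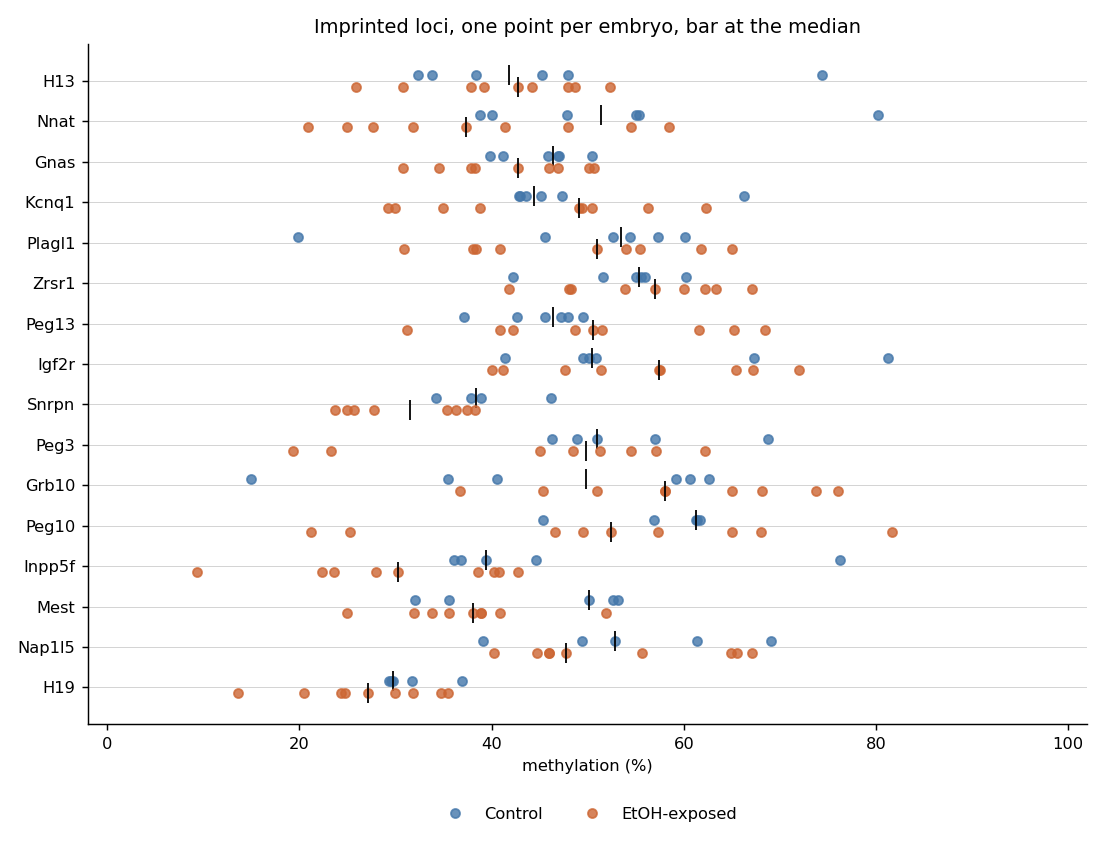
Methylation (%) of the 16 imprinted loci with a tile in range, 1 point per embryo (controls above, exposed below each line) and a bar at the median of the group. The groups overlap at every locus, with the exposed median to the left at 10 loci (by most at Nnat, Mest, Inpp5f and Peg10) and to the right at 6 (H13, Kcnq1, Zrsr1, Peg13, Igf2r and Grb10).

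The genes named by the study are here the autosomal, non-imprinted ones that its text gave with a differentially methylated region. Dlx1, Dlx6 and Nkx2-1, which it named without one, are counted under forebrain patterning below. The genes had been selected on these libraries, left-out embryos included, so their direction here is no independent evidence. Of 17, 16 had at least 1 tile, 226 in all, and Apoa1 had none. At the tile of each gene with the largest difference (measured in all 15 samples where the gene had such a tile), 7 genes were lower by 5 points or more, 1 was higher by 5 points or more and 8 differed by under 2 points. Tiles not measured in all 15 can differ by more. Over the 39 analysed promoter tiles of these genes, the differences ran from -10.99 to 2.49 points.

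Hcn4, a pacemaker cation channel, had the largest difference among the tiles chosen in this way. At a tile in intron 2 the levels were 52.3, 53.3 and 62.7% in controls and 21.6, 36.6 and 54.1% in exposed embryos. In the exposed group 7 embryos lay below every control, while EtOH-exposed 10 and 12, at 54.0 and 54.1%, lay among them. The means were 54.7 ± 3.96% and 40.6 ± 10.96%, a difference of -14.2 points. In intron 3 of Septin9, a cytoskeletal GTPase, the levels were 45.5, 55.7 and 63.6% in controls and 37.1, 43.8 and 54.7% in exposed embryos. Here 6 exposed embryos were below every control and none above, and the means were 54.6 and 44.3%. In intron 5 of Celsr1, a cadherin of planar cell polarity, the levels were 31.9, 35.7 and 37.5% in controls and 12.4, 26.3 and 39.5% in exposed embryos. EtOH-exposed 12 was above every control, 6 embryos were below with EtOH-exposed 16 lowest, and the means were 35.6 and 27.6%.

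The single tile of the cytokine gene Il6, in exon 2 (chr5:30013401-30013500), had 65.6, 70.1 and 78.05% in controls and 51.4, 64.2 and 70.2% in exposed embryos, with 6 below every control and a mean difference of -7.30 points. At a tile in intron 19 of the growth factor gene Egf (5 controls and 8 exposed embryos) the difference was 6.70 points; control 1 had 61.5% and the other controls 77.0 to 85.3%, and without control 1 it was 2.91 points. The mean of Lpin1, a phosphatidate phosphatase, differed by -6.57 points at exon 8, where EtOH-exposed 11 and 16 had 23.5 and 30.1% and the others 51.4 to 67.9% against 55.0 to 65.6% in controls, so that it was -2.81 points without EtOH-exposed 11, -3.64 without EtOH-exposed 16 and -12.9 without EtOH-exposed 1, 3 and 12. Gipc2, a PDZ-domain protein, differed by -9.32 points at an intergenic tile assigned to it and the promoter of Tmem267, a transmembrane protein, by -6.68; both had exposed embryos on either side of the control range. The Tmem267 difference was -3.13 points without control 4, -4.34 without EtOH-exposed 11, -10.5 without EtOH-exposed 12 and -12.3 without EtOH-exposed 1, 3 and 12. The tiles chosen for Lrch1, Nkx6-2, Dlx2, Cflar, Epha7, Foxa1, Vwc2 and Sox6 differed by under 2 points.

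**Figure D4:**
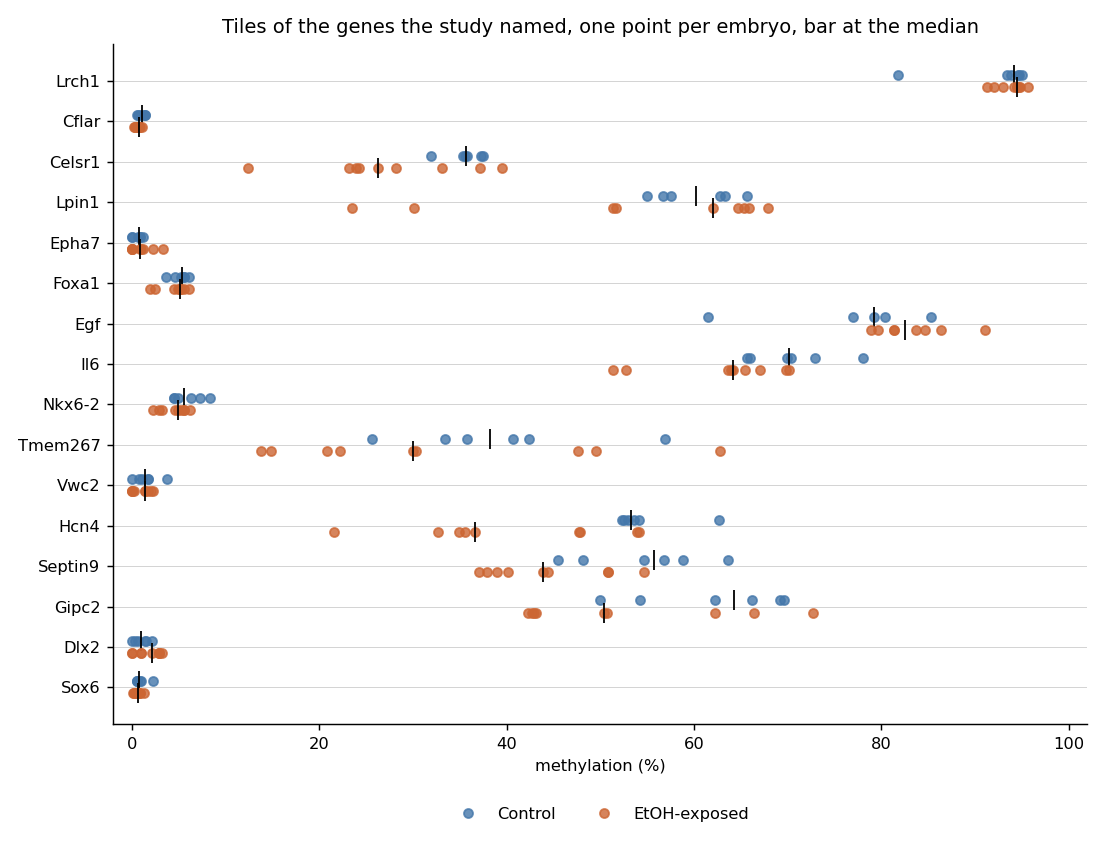
Methylation (%) at 1 tile of each of 16 genes the study named, 1 point per embryo with a bar at the group median. The tile shown has the largest difference of means among the gene's tiles measured in all 15 samples. Where a gene had no such tile, it is taken from all its analysed tiles. At Hcn4, Septin9, Celsr1 and Il6 most exposed embryos lie to the left of the controls, yet some lie among them at each gene.

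The promoters of genes related to the tissue or treatment were mostly unmethylated and differed by under 1 point in the mean of each of the 3 lists given first. Over all 27016 promoter tiles the median difference was -0.20 points, with 19737 lower and 7279 higher. Of 33 promoter tiles of forebrain patterning genes, which include the regulators Emx2, Otx2 and Pax6, 23 were lower and 10 higher, with a median of -0.14 points at a control level of 1.03%. The largest differences were at Fgf8, a signal of the anterior forebrain, and at Dlx6, a homeobox gene of the ventral forebrain, with -3.29 and -2.23 points. Per embryo, the mean over this list's tiles measured in all 15 was 1.47 ± 0.410% in controls and 0.868 ± 0.346% in exposed embryos, a difference of -0.600 points against -0.241 over all promoters, and 4 of 9 exposed embryos lay within the control range against 6 of 9. Of 33 tiles of the DNA methylation machinery, 28 were lower and 5 higher, with a median of -0.25 points and the largest differences at the methyltransferase gene Dnmt3a (-0.79) and at Zfp57 (-0.73). Of 23 tiles of alcohol and one-carbon metabolism genes, 19 were lower (median -0.17 points), led by the retinaldehyde dehydrogenases Aldh1a3 (-0.81) and Aldh1a2 (-0.75).

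In those 3 lists EtOH-exposed 1, 3 and 12 were the 3 lowest compared embryos, as at unmethylated tiles in general. Without them the difference of the list means was -0.407 points for forebrain patterning (from -0.600), and it turned from -0.206 to 0.0188 for the methylation machinery and from -0.205 to 0.0443 for the metabolism list. Control 1 was the highest control in the last 2 lists, and without it alone these were -0.0737 and -0.0572 points; without controls 1 and 2 they were 0.0896 and 0.0599, and -0.423 for forebrain patterning. Promoters of germline genes, which are methylated in somatic tissue, had 91.5 ± 0.912% in controls and 91.8 ± 0.535% in exposed embryos. All 9 exposed embryos lay within the control range, and the difference of 0.274 points fell to -0.00138 without control 3. The tiles that differed most were those of Ddx4, a germ cell helicase, with 63.4 and 69.8%, and of Mael, a piRNA factor, with a difference of -4.83 points. Of 30 promoter tiles of imprinted genes 27 were lower and 3 higher, with a median of -1.06 points. Over those measured in all 15 the mean difference was -2.44 points, which rests on control 2 (37.6%): it was -0.104 without it and 1.14 without controls 1 and 2. Dnmt3l, Dppa3, Stk31, Brdt, Adh7, Cyp2e1 and Bhmt of these lists had no analysed tile.

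Tiles without overlap between the groups were rare. A complete lack of overlap, whatever its size, was found at 77 tiles with lower methylation in exposed embryos (0.0678% of the tiles analysed) and 44 with higher (0.0388%). With a difference of at least 10 points, 5 tiles were lower (0.0044%) and 4 higher (0.00352%), and none of these 9 was measured in all 15 samples. Without any 1 control all 5 others are needed, which leaves 45661 to 81059 tiles, and there were 1 to 3 lower tiles (0.00216 to 0.00438%) and 0 to 3 higher ones (0 to 0.0037%). No higher tile was left without control 1, 3, 4 or 5. Without EtOH-exposed 1 or 12, which keeps nearly all tiles, there were 8 and 16 lower tiles (0.00713 and 0.0143%), and without EtOH-exposed 16 there were 8 higher ones (0.00713%). Leaving out EtOH-exposed 1, 3 and 12 gave 120 lower and 41 higher tiles (0.113 and 0.0385% of 106623), although fewer embryos also make a lack of overlap easier.

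The lower tiles comprised 1 in the promoter of Zbtb8b, a zinc-finger gene (chr4:129441401-129441500), with 22.6, 30.9 and 68.2% (lowest, median, highest) in 5 controls and 20.5, 21.2 and 21.7% in 5 exposed embryos. The gap to the nearest control was under 1 point there, and control 6 alone was far above. In intron 8 of Trpc7, a cation channel gene, the tile printed above had 67.9, 68.8 and 100% in 5 controls and 30.4, 59.5 and 62.8% in 5 exposed embryos, with control 6 at the top. The other 3 lower tiles were intergenic on chromosomes 6, 14 and 15. The tile on chromosome 15 (chr15:41244601-41244700) had 93.9 to 100% in controls and 85.5 to 92.7% in 7 exposed embryos, with EtOH-exposed 11 at 37.3%. The 4 higher tiles lay in intron 3 of Extl3, a heparan sulfate synthesis gene (80.3 and 93.7%), in intron 17 of the synaptic adhesion gene Nrxn2 (72.6 and 83.3%) and between genes on chromosomes 5 and 8. At the Nrxn2 tile control 1 had 53.3% and the other measured controls 76.4 to 77.8%. At most 1 other tile was measured within 1 kb of each of these 9.

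**Figure D5:**
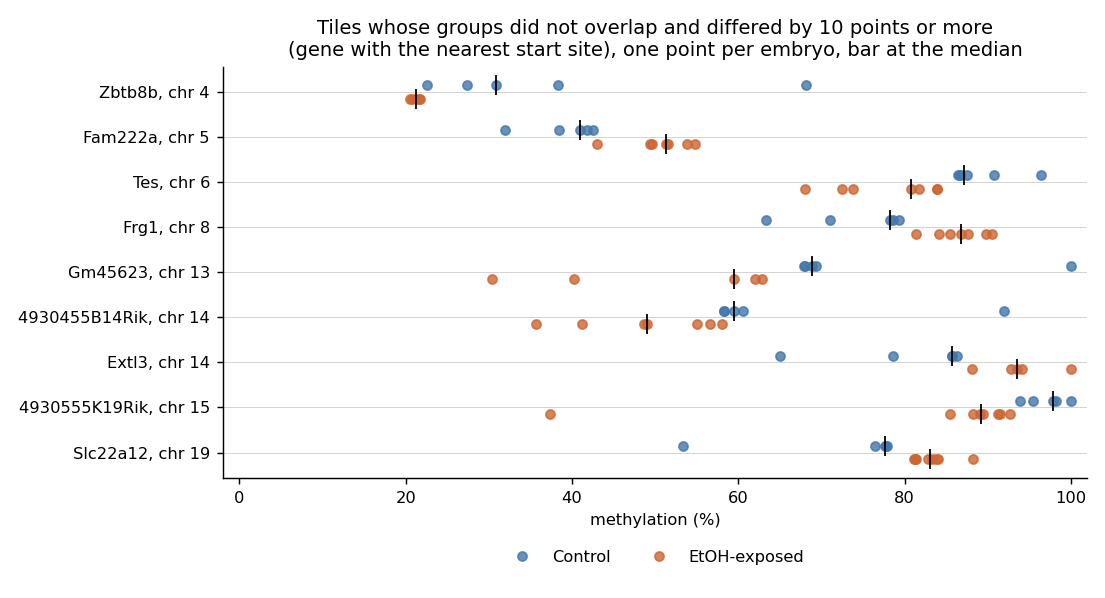
Methylation (%) at the 9 tiles without overlap and with a difference of at least 10 points, named by the nearest start site and chromosome, 1 point per measured embryo with a bar at the median. In several tiles 1 control stands far from the rest, such as the one at 100% on chromosome 13.

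Among tiles measured in all 15 samples, 10 lower and 2 higher tiles had no overlap, with smaller differences. The intergenic repeat tile printed above (chr14:44299101-44299200) had 81.1, 83.0 and 91.7% in controls and 57.3, 78.3 and 80.6% in exposed embryos, where EtOH-exposed 3 was lowest, and a mean difference of -9.17 points. The next were chr16:69855001-69855100 (92.2 and 86.5%, EtOH-exposed 11 lowest at 72.9%) and a tile in intron 11 of Alox12e, a lipoxygenase gene (chr11:70316501-70316600, 96.1 and 93.0%). The other 7 lower tiles were close to unmethylated, under 5% in the mean of controls, as at chr3:88241201-88241300 (2.38 and 0.775%) and chr9:120619601-120619700 (2.53 and 1.13%). At the tile on chromosome 3 control 6 had 5.75% and the other controls 1.42 to 2.18%. Of the 2 higher tiles, the printed one on chromosome 2 had 88.6, 92.3 and 94.2% in controls and 95.01, 95.8 and 98.5% in exposed embryos, and one in intron 1 of Gramd4 (chr15:86066201-86066300), had 95.3 and 97.3%.

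The study's criterion for a differentially methylated tile was a q under 0.01 from MethylKit and a difference of at least 10 points. Here the q came from a logistic model of the reads, and the group levels were weighted by coverage. In this form the criterion was met by 91 lower (0.0802%) and 126 higher tiles (0.111%). The study's methods give the level as an average over CpGs and samples and state neither weights nor the model. With unweighted group means the split turned, to 155 lower (0.137%) and 90 higher tiles (0.0793%), and of the 91 and 126 tiles 58 and 51 had an unweighted difference of at least 10 points. These counts describe the selected embryos, and nothing is read from them as a test. They take no account of the spread between embryos. Of the 91 lower and 126 higher tiles, 16 and 14 were measured in all 15 samples, and 4 and 2 had no overlap. The lower tiles had a median control level of 57.7% and comprised 39 intergenic and 32 intronic tiles, 11 in coding exons and 7 in promoters, whereas the higher ones comprised 56, 35, 28 and 6. Among genes the study named, Tmem267 held 2 such tiles and Hcn4 and Gipc2 1 each. That is 4 of their 226 tiles, against 217 of 113525 over all tiles. These genes had been selected on these libraries, so nothing is read from that share. Near an imprinted start site lay 3 tiles in all, for which no share was worked out and from which nothing is read.

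The counts moved with single embryos and with the tiles that could be analysed. Without any 1 control all 5 others are needed, which leaves 45661 to 81059 tiles. The count of lower tiles was then 25 to 83 (0.054 to 0.102% of these tiles) and that of higher tiles 20 to 115 (0.0419 to 0.149%). Leaving out an exposed embryo kept 112186 tiles or more. The lower count was 209 (0.186%) without EtOH-exposed 12, 152 (0.135%) without EtOH-exposed 1 and 59 (0.0525%) without EtOH-exposed 11. Without EtOH-exposed 1, 3 and 12 the counts were 592 and 210, that is, 0.555 and 0.197% of the tiles, and the split turned from more higher to more lower tiles. The split also turned without EtOH-exposed 12 alone, since the higher count was at most 166 without any 1 library.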

How the data were processed

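RRBS libraries of 22 E10.5 forebrains were available, and 9 EtOH-exposed and 6 control samples, grouped by their labels, were compared. Members and gene lists were chosen with earlier results of these data known. The authors trimmed reads with Trim Galore 0.3.3 and aligned them to mm10 with BSMAP 2.90, per the submitters' processing notes. The deposited counts are the reads over every CpG cytosine, with the strands apart, and the deposited percent values are the shares of methylated and unmethylated reads, rounded by the authors. Methylated reads were recovered as coverage multiplied by percent. All 2908948 CpGs lay at a CG of GRCm38.

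A strand of a CpG was kept with at least 10 reads, and strands were added. Tiles of 100 bp needed at least 2 such CpGs. Group means are unweighted over embryos. RefSeq genes of GRCm38 gave the annotation, where a promoter spans 1000 bp before to 100 bp after a start site. All 103 listed genes were matched by symbol or synonym. Named genes were every listed imprinted locus with an analysed tile. To these were added the genes with an analysed tile that the study named with a differentially methylated region, on autosomes and outside imprinted loci. The 2 genes with the largest difference in each other list were named too. So were the 5 lower and up to 5 higher tiles without overlap that were measured in all 15 samples. The 9 tiles without overlap and a difference of at least 10 points were named after their values were seen. Exact permutation tests of 3 depth measures were planned and run, but their p-values are not given because depth moved with the choice of embryos. The tile tests were run on simulated data first. Alternatives covered read and CpG minimums, CCGG sites, the difference threshold, an F test with overdispersion, the definitions of imprinted and intermediate tiles, leaving out each sample, and a replicate block. Scripts were run in Python 3.11.15 (pandas 2.3.3, numpy 2.4.6, scipy 1.17.1; plots with matplotlib 3.10.9).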

Additional observations from a re-analysis of the deposited data

Results flagged for a closer look

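Among 82 groups of 4 to 9 embryos that were examined, 8 held 1 embryo far from the rest by Dixon's criterion. Chance gives such a gap in about 1 group in 20 where values are not selected. All 8 were groups of controls. The exposed embryos were chosen by methylation and the gene tiles by their difference of means, so that rate need not hold here. The choice left out exposed embryos of low methylation and no control, so nothing is read from the lack of flagged exposed groups. At imprinted loci, control 2 had 74.4% at H13, with the next control at 48.0%, and 66.3% at Kcnq1, with the next at 47.3%. Control 6 had 19.8% at Plagl1 (next 45.6%) and 45.3% at Peg10 (next 56.9%), and control 1 had 76.2% at Inpp5f (next 44.7%). At genes the study named, control 6 had 81.8% at Lrch1 (next 93.4%), control 4 had 62.7% at Hcn4 (next 54.2%) and control 1 had 2.24% at Sox6 (next 0.966%). Among the compared embryos, controls 1 and 2 also had the highest level at unmethylated tiles and control 6 the fewest reads per tile. The part of either in these values was not tested.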

How the results depend on the processing

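Leaving out each sample in turn, with tiles chosen again among the samples left, moved the difference between groups from -0.336 to -0.173 points over all tiles, from -0.400 to -0.0103 for the share of tiles at 90 to 100%, from -0.978 to -0.335 over intermediate tiles and from -3.75 to -0.708 over imprinted tiles. Over the same tiles these ranges were -0.345 to -0.155, -0.452 to -0.0048, -0.978 to -0.318 and -4.14 to -0.412. Tiles without overlap and at least 10 points apart ranged from 1 to 16 lower and 0 to 8 higher. Tiles past the study's criterion ranged from 25 to 209 lower and 20 to 166 higher. The difference in calls per sample ranged from 21.1 to 34.01 M calls, in reads per tile from 41.4 to 119 and in coverage of methylated fragments from -0.45 to -0.32.

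Counts of tiles moved with the filters and the threshold. The read, CpG and CCGG filters also change how many tiles are analysed, so the counts below are not shares of 1 total. Their order is lower and higher without overlap (and at least 10 points apart unless stated), then lower and higher past the criterion. They were 9, 6, 188 and 233 with at least 5 reads, 1, 1, 48 and 46 with at least 20 reads, 2, 0, 38 and 55 with at least 3 CpGs, 1, 5, 48 and 66 without CpGs of CCGG sites, and 1, 0, 5 and 9 with a difference of 20 points. Unweighted group means, also added after seeing the data, gave 155 and 90 past the criterion. Values in all 15 samples left 0 and 0 without overlap and at least 10 points apart. The F test with overdispersion left 0 and 0 past the criterion, against 11546 of the 113525 tiles at an unadjusted p under 0.05. That is a description likewise, since these levels chose the embryos. Without EtOH-exposed 1, 3 and 12 the counts were 120, 41, 592 and 210, the calls per sample differed by 21.6 M, and the imprinted difference was 0.425 points over the 30 tiles then measured in every sample, against -0.458 over the same 28 tiles; the share of tiles at 90 to 100% differed by 0.209 without CCGG sites. Subtracting each sample's level at unmethylated tiles, chosen after seeing the data, gave -0.150 over all tiles, -0.105 for the share, -0.580 over intermediate tiles and -1.87 over imprinted tiles; leaving out samples over the same tiles, or for the depth measures, features, lists, loci and gene tiles, was also added then. The cause of these shifts was not tested.

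With the replicate block, which needs numbers that both groups share (1 and 3), the difference was -0.715 points over all tiles, -0.352 for the share, -0.698 over intermediate tiles and -6.97 over imprinted tiles; the samples share only a number, and 2 pairs allow no check of pairing. At single intermediate tiles depth gives a counting SD of 2.93 points, with the CpGs of 1 read taken as independent. The spread between embryos was 4.96 to 5.34.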
